A study of Homo sapiens with 9 samples.

Results

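Tight junction genes were followed across 3 human breast epithelial cell lines of one lineage. The genes are CLDN1, CLDN3, CLDN4 and CLDN7 (claudins), OCLN (occludin), MARVELD2 (tricellulin), F11R (junctional adhesion molecule A), TJP1 (ZO-1) and TJP3 (ZO-3). They were chosen by name as 9 of the 62666 genes in the deposited tables, and each had 1 row. Of the 9, 8 passed the filter on low counts and were tested. CLDN3 did not pass.

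Tight junctions seal the space between neighbouring epithelial cells near their apical side. Claudins form the strands and set which ions pass, occludin and tricellulin belong to the MARVEL family of four-pass membrane proteins, with tricellulin placed where 3 cells meet, and junctional adhesion molecule A is an immunoglobulin-type adhesion protein. The ZO proteins bind the tails of these membrane proteins inside the cell and tie them to actin. In mammary epithelium these junctions close the milk ducts, and their components are often altered in breast tumours.

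Polyadenylated RNA was sequenced from MCF10A, MCF10AT1 and MCF10Ca1a cells to ask how expression changes as breast cancer develops, in 9 libraries, 3 from each line. MCF10A cells are immortal mammary epithelial cells that form no tumours. MCF10AT1 cells were made from them with an oncogenic HRAS gene and stand for a premalignant stage, and MCF10Ca1a cells, from the same lineage, form malignant tumours in mice. Every line was cultured with insulin (10 µg/mL), epidermal growth factor (20 ng/mL), hydrocortisone (500 ng/mL), cholera toxin (100 ng/mL), glutamine (2 mM) and bicarbonate (14 mM) in DMEM/F12. Horse serum was at 5% for MCF10A and MCF10Ca1a and at 2.5% for MCF10AT1, so serum and line cannot be told apart for MCF10AT1. Each stage is represented by 1 line, the labels do not say whether the 3 libraries of a line came from separate cultures, and p-values therefore measure only the spread between these libraries, which may be technical.

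Libraries held 64.2 to 69.5 M estimated counts in MCF10A, 62.9 to 68.1 M in MCF10AT1 and 32.9 to 35.2 M in MCF10Ca1a. The summed level of 12 epithelial markers in CPM (counts scaled to a common library total, per 1e6) was 9010 to 11000 in MCF10A, 13200 to 14200 in MCF10AT1 and 12100 to 12900 in MCF10Ca1a. None of these markers was at 0 in any line. The sum hides opposite moves, since in MCF10Ca1a against MCF10A 8 were higher and 3 lower: CDH1 averaged 749 against 145 CPM, KRT5 686 against 2550, KRT6A 372 against 1720 and KRT14 6.26 against 316. KRT19 was under 1 CPM in MCF10A and MCF10AT1. Of the endothelial markers, PECAM1 averaged 3.11, 3.54 and 45.4 CPM in the 3 lines in that order and KDR and TEK fell from MCF10A to MCF10Ca1a, from 0.564 to 0.0094 and from 0.334 to 0.0765 CPM, while CLDN5 was at 0 in every library and CDH5 at 0 or near 0. The 9 fibroblast markers summed to 81.5 to 83 CPM in MCF10A, 77.7 to 81.7 in MCF10AT1 and 29.2 to 30 in MCF10Ca1a, most of it from FAP, followed by COL1A1 in MCF10A and MCF10Ca1a and by DCN in MCF10AT1. Of the leukocyte markers CD3E was at 0 and PTPRC was near 0, and the list summed to 21.5 to 26.9, 8.02 to 8.95 and 41.1 to 45.2 CPM. Most of this was CD68, at 14.8 CPM in MCF10A and 41.9 in MCF10Ca1a, and CD14, which went the other way from 9.16 to 0.208. The 5 adipocyte markers summed to at most 0.25, 0.451 and 9.48 CPM in the 3 lines, led by PLIN1 in MCF10Ca1a, with LEP at 0 throughout. The part of these genes in the results below was not tested.

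CLDN1, CLDN4 and CLDN7 rose from MCF10A to MCF10Ca1a, and tricellulin fell. Occludin and junctional adhesion molecule A were lowest in MCF10AT1 and highest in MCF10Ca1a. ZO-1 and ZO-3 were higher in MCF10Ca1a than in both other lines, with no change called between MCF10A and MCF10AT1. In the quasi-likelihood test of edgeR, with p adjusted by Benjamini-Hochberg over the 17910 genes tested, 6 of the 8 tested genes differed between MCF10AT1 and MCF10A, 3 higher and 3 lower. Of all genes, 61.6% were called in that comparison, 29.8% higher and 31.8% lower. All 8 tested genes differed between MCF10Ca1a and MCF10A, with 7 higher and 1 lower, and the background was 80.9%, with 39% higher and 41.9% lower. The same 7 higher and 1 lower were called between MCF10Ca1a and MCF10AT1, against a background of 78.4%, with 38% higher and 40.3% lower. Since most genes were called, a count of 6 or 8 called genes is close to what the whole table showed, and the direction and size of each change carry more than the count.

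On the log2 scale the median change of the 8 tested genes was 0.05 between MCF10AT1 and MCF10A, where the median of all genes was 0. It was 1.23 between MCF10Ca1a and MCF10A, beside -0.05 for all genes, and 1.19 between MCF10Ca1a and MCF10AT1, beside -0.04. The share of called genes that were higher depended on the scale. On counts it was 48.4%, 48.2% and 48.5% in these 3 comparisons in that order, and with limma on log2(TPM + 1), where TPM is the level per transcript length scaled to a fixed total, it was 36.2%, 55% and 61.6%. The comparisons share lines and are not independent.

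**Figure D1:**
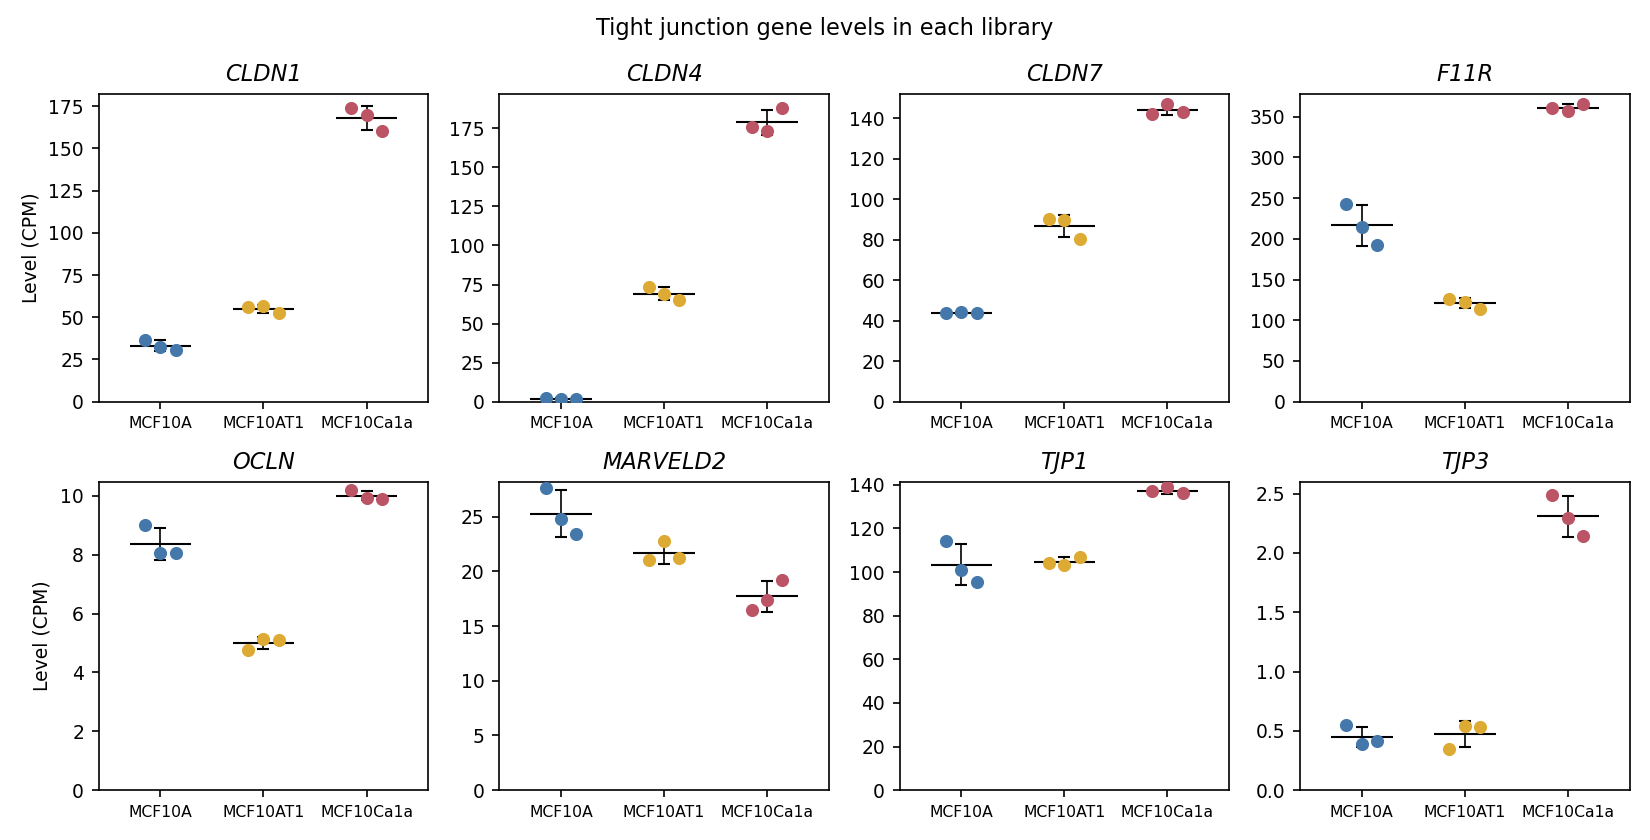
Level of each of the 8 tested genes in CPM (vertical axis, from 0, with its own scale in each panel) in every library of the 3 lines (horizontal axis). Points are libraries, the horizontal line is the mean of 3 and the bars are ± 1 SD; CLDN1, CLDN4 and CLDN7 climb from line to line, OCLN and F11R are lowest in MCF10AT1, and MARVELD2 descends.

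**Figure D2:**
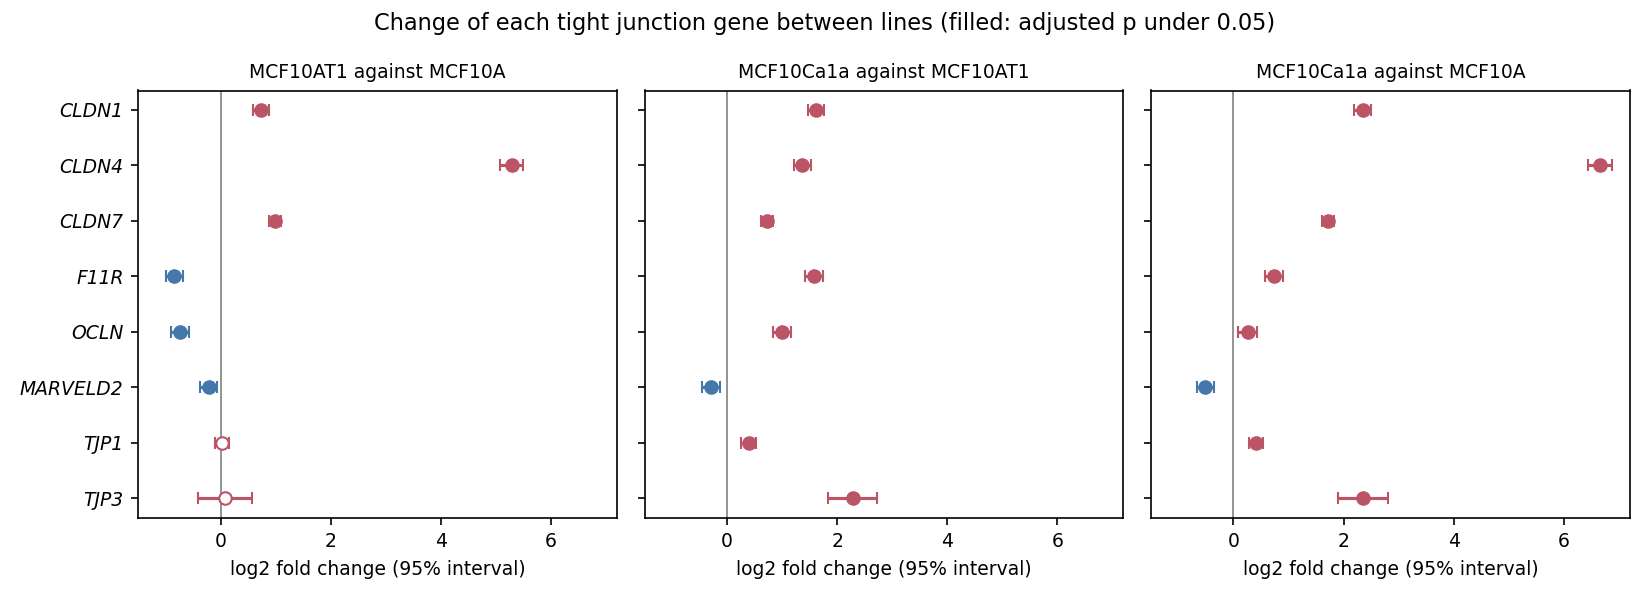
Fitted log2 fold change of each gene (horizontal axis) with its 95% interval in the 3 comparisons, red where the estimate is above 0 and blue where it is below. Open points did not pass the test; these are TJP1 and TJP3 in MCF10AT1 against MCF10A, and CLDN4 lies furthest from 0, at 5.29 and 6.66 against MCF10A.

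Among the claudins, CLDN4 changed most. It encodes a strand-forming claudin of many epithelia, also known as a receptor for a bacterial enterotoxin, and lies on chromosome 7 from 73799542 to 73832693 on the plus strand (GRCh38). MCF10A libraries held 131, 117 and 102 CLDN4 counts, or 2.04, 1.81 and 1.46 CPM. MCF10AT1 libraries were at 73.4, 68.9 and 65.1 CPM, and MCF10Ca1a libraries at 176, 173 and 188 CPM. No values overlapped between any of the lines. The fitted change from MCF10A was 39.1-fold in MCF10AT1 (log2 5.29, SE 0.0956, adjusted p = 3.29e-14; 4.62 with limma on log2(TPM + 1), adjusted p = 6.43e-10) and 101-fold in MCF10Ca1a (log2 6.66, SE 0.0974, adjusted p = 2.1e-15). MCF10Ca1a was 2.59-fold above MCF10AT1 (log2 1.37, SE 0.0692, adjusted p = 3.54e-10). In bulk RNA a change in the share of cells that express a gene and a change in RNA per cell cannot be told apart.

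CLDN1, the claudin needed for the skin's water barrier, lies on chromosome 3 from 190305701 to 190322475 on the minus strand. Its levels were 36.7, 32.4 and 30.3 CPM in MCF10A, 56.1, 56.5 and 52.3 in MCF10AT1, with 174, 170 and 160 in MCF10Ca1a. The lines formed 3 separate steps without overlap. The rise was 1.66-fold from MCF10A to MCF10AT1 (log2 0.73, SE 0.0688, adjusted p = 6.23e-07) and 3.06-fold from MCF10AT1 to MCF10Ca1a (log2 1.61, SE 0.0684, adjusted p = 5.97e-11). CLDN7, a claudin found along the lateral membrane of many epithelia, lies on chromosome 17 from 7259903 to 7263983 on the minus strand. It stood at 43.6, 44.1 and 43.7 CPM in MCF10A, 90.3, 89.5 and 80.4 in MCF10AT1, with 142, 147 and 143 in MCF10Ca1a. These steps did not overlap either. On counts they came to 1.98-fold (log2 0.99, SE 0.0536, adjusted p = 2.28e-09) and 1.66-fold (log2 0.73, SE 0.0528, adjusted p = 1.59e-08). On the log2 scale the CLDN7 steps were 0.67 and 0.65 with length-scaled counts, and 0.53 and 0.93 with limma on log2(TPM + 1). CLDN7 thus rose at both steps on each scale, but which step was larger depended on the scale. The CLDN7 locus overlaps AC003688.1 on the same strand and ELP5 on the opposite strand, and reads shared with the first could not be told apart here.

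CLDN3, a close neighbour of CLDN4 at a gap of 29.3 kb on the same chromosome, was not detected in MCF10A or MCF10AT1, where every library held 0 counts. A count of 0 allows a level of up to 0.0483 CPM in these libraries, from 3 counts in the shallowest. In MCF10Ca1a 1 of the 3 libraries held 1 count and the others 0, where the limits are 0.0838 and 0.0846 CPM. These limits cover counting error only. The pair of neighbouring claudins thus differed, with CLDN4 at 173 CPM or more in every MCF10Ca1a library and CLDN3 at no more than 1 count in any library.

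The make-up of claudin RNA was compared per length, in TPM. The 24 claudin genes in the table summed to 120 ± 6.46 TPM (SD, n = 3) in MCF10A, 205 ± 12.1 in MCF10AT1 and 490 ± 1.84 in MCF10Ca1a. CLDN7 took 50.9% ± 0.0125 of this sum in MCF10A, 43.4% ± 0.263 in MCF10AT1 and 34.8% ± 0.417 in MCF10Ca1a (SD, n = 3 each). CLDN4 took 0.897% ± 0.229, 24.4% ± 0.458 and 31.9% ± 0.949. CLDN1 took 17% ± 1.69, 15.1% ± 0.193 and 23.1% ± 0.898. CLDN4 thus went from a trace in MCF10A to about the level of CLDN7 in MCF10Ca1a, at 156 ± 4.34 TPM against 171 ± 2.51 TPM (SD, n = 3).

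**Figure D3:**
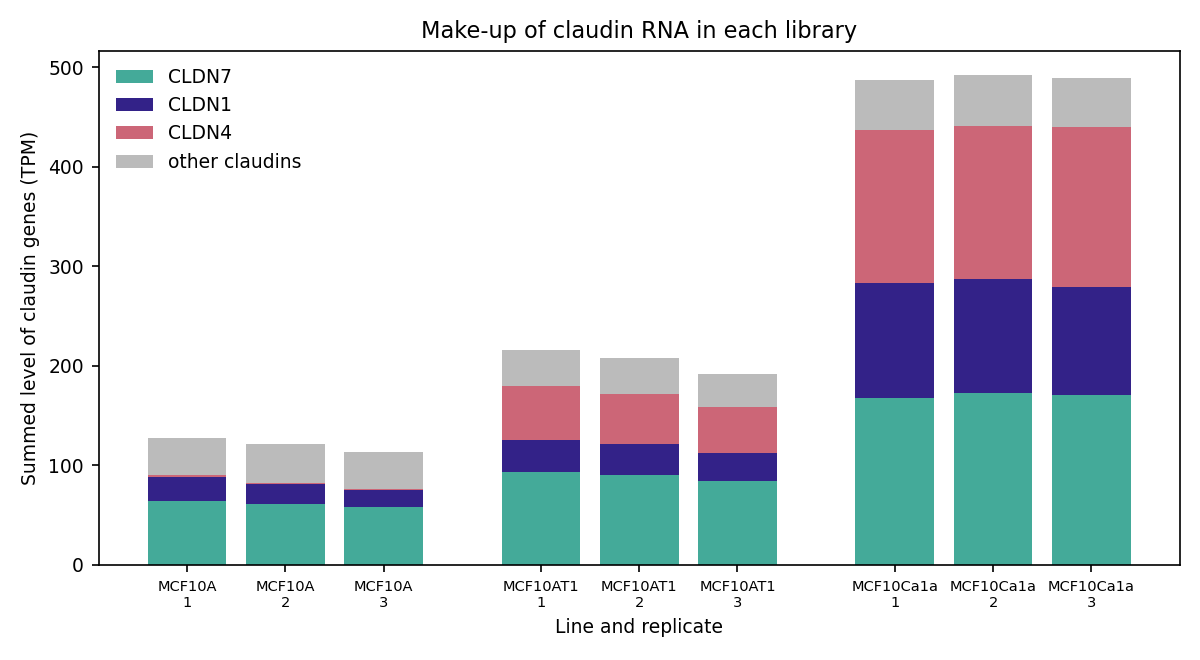
Summed TPM of all claudin genes (vertical axis, from 0) in each library, with the parts of CLDN7, CLDN1, CLDN4 and all other claudins stacked. The sum is 114 to 127 TPM in MCF10A, 192 to 216 in MCF10AT1 and 488 to 492 in MCF10Ca1a, and the CLDN4 part is hardly visible in MCF10A.

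OCLN was low in all 3 lines. Occludin lies in the strands beside the claudins and is known for regulating the junction more than for forming it. The gene is on chromosome 5 from 69492292 to 69558104 on the plus strand and overlaps the antisense gene AC145146.1. Its levels were 9, 8.05 and 8.07 CPM in MCF10A, 4.75, 5.13 and 5.11 in MCF10AT1, with 10.2, 9.93 and 9.9 in MCF10Ca1a. MCF10AT1 was lowest and no values overlapped. OCLN was 1.67-fold lower in MCF10AT1 than in MCF10A (log2 -0.74, SE 0.0774, adjusted p = 1.75e-06) and 2-fold higher in MCF10Ca1a than in MCF10AT1 (log2 1, SE 0.0797, adjusted p = 4.37e-08). MCF10Ca1a exceeded MCF10A by 1.19-fold (log2 0.26, SE 0.0769, adjusted p = 0.00723), and this call was lost without the filter on low counts (log2 0.18, adjusted p = 0.109).

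MARVELD2 was the 1 tested gene to fall at both steps. It encodes tricellulin and lies on chromosome 5 from 69415065 to 69444330 on the plus strand, 48.0 kb before OCLN. It stood at 27.6, 24.8 and 23.4 CPM in MCF10A, 21, 22.8 and 21.2 in MCF10AT1, with 16.5, 17.4 and 19.2 in MCF10Ca1a. The lines did not overlap, but MCF10A and MCF10AT1 were less than 1 CPM apart at their nearest libraries. The fall was 1.17-fold in MCF10AT1 against MCF10A (log2 -0.22, SE 0.07, adjusted p = 0.0133) and 1.22-fold in MCF10Ca1a against MCF10AT1 (log2 -0.29, SE 0.0744, adjusted p = 0.00275). MCF10Ca1a was 1.43-fold below MCF10A (log2 -0.51, SE 0.074, adjusted p = 1.92e-05). The first call was lost without MCF10AT1 replicate 1 (adjusted p = 0.0588) or replicate 3 (adjusted p = 0.0529), and the second on the TPM scale (log2 -0.04, adjusted p = 0.734 by limma on log2(TPM + 1)).

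F11R was the most abundant of these genes by CPM in every line. Junctional adhesion molecule A takes part in the early assembly of the junction and in cell polarity. The gene lies on chromosome 1 from 160995211 to 161021348 on the minus strand and overlaps AL591806.3 on the same strand. Its levels were 243, 215 and 192 CPM in MCF10A, 126, 122 and 114 in MCF10AT1, with 361, 357 and 366 in MCF10Ca1a. The order of the lines was that of OCLN, without overlap. F11R was 1.79-fold lower in MCF10AT1 than in MCF10A (log2 -0.84, SE 0.0758, adjusted p = 4.17e-07), 2.99-fold higher in MCF10Ca1a than in MCF10AT1 (log2 1.58, SE 0.077, adjusted p = 2.51e-10) and 1.67-fold higher in MCF10Ca1a than in MCF10A (log2 0.74, SE 0.0754, adjusted p = 5.69e-07).

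Neighbouring genes were read from the same fit, where 29.8% of all genes were higher and 31.8% lower at the first step, and 38% higher and 40.3% lower from MCF10AT1 to MCF10Ca1a. Around F11R, of 21 other tested genes within 500 kb, 14 were lower and 2 higher in MCF10AT1 than in MCF10A, and 16 were higher and 3 lower in MCF10Ca1a than in MCF10AT1. Their median log2 changes were -0.77 and 0.9. Around OCLN, 16 tested genes within the same distance had medians of 0.06 and -0.38, unlike OCLN itself. The 14 around MARVELD2, in a window that overlaps that of OCLN, had medians of 0.14 and -0.38. Of these, 4 were higher and 8 lower at the second step, where MARVELD2 also fell. The 5 around TJP1 had medians of -0.36 and 0.02. The 50 around CLDN7 had medians of -0.06 and 0.23, and the 16 around CLDN4 of -0.31 and -0.18. The 5 around CLDN1 had medians of 1.7 and 0.12, with 3 higher and 2 lower at the first step and 2 higher and 2 lower at the second. Around TJP3, 4 of 20 were higher and 8 lower at the first step and 11 were higher and 4 lower at the second, with medians of -0.01 and 0.67. CLDN16, a claudin of the kidney's thick ascending limb, starts 66 bases from CLDN1 on the opposite strand and averaged 0.0462, 0.23 and 2.76 CPM over the lines in that order. The part of position in these changes was not tested.

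The cytoplasmic scaffolds differed mainly at the second step. TJP1 encodes ZO-1, the PDZ-domain scaffold that links claudins and occludin to actin, and lies on chromosome 15 from 29699367 to 29968865 on the minus strand. It stood at 114, 101 and 95.3 CPM in MCF10A, 104, 103 and 107 in MCF10AT1, with 137, 139 and 136 in MCF10Ca1a. MCF10A and MCF10AT1 overlapped, and MCF10Ca1a lay above both. The fitted difference between MCF10AT1 and MCF10A was 0.02 on the log2 scale (95% interval -0.11 to 0.15, adjusted p = 0.798). MCF10Ca1a was 1.33-fold above MCF10A (log2 0.41, SE 0.0611, adjusted p = 2.68e-05) and 1.31-fold above MCF10AT1 (log2 0.39, SE 0.0611, adjusted p = 4.65e-05).

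TJP3 encodes ZO-3, a related scaffold found mainly in epithelia, and lies on chromosome 19 from 3708109 to 3750813 on the plus strand. It was scarce. MCF10A libraries held 35, 25 and 29 counts, MCF10AT1 libraries 23, 36 and 33, and MCF10Ca1a libraries 89, 77 and 76. These come to 0.546, 0.386 and 0.415 CPM, 0.345, 0.543 and 0.532 CPM, and 2.49, 2.29 and 2.14 CPM. The first 2 lines overlapped and the third stood apart. MCF10Ca1a was 5.12-fold above MCF10A (log2 2.36, SE 0.21, adjusted p = 1.3e-07) and 4.86-fold above MCF10AT1 (log2 2.28, SE 0.209, adjusted p = 1.96e-07). The size of this rise depended on the values used: against MCF10A it was 1.71 on the log2 scale with the length-scaled and the scaled counts (adjusted p = 0.000453 and 0.00265), 1.62 with limma on log2(TPM + 0.1) (adjusted p = 0.000183) and 0.65 on log2(TPM + 1) (adjusted p = 5.82e-05), where the pseudocount understates low genes. Against MCF10AT1 the TPM fits gave 1.67 and 0.67. Between MCF10AT1 and MCF10A the estimate was 0.07 (95% interval -0.42 to 0.57, adjusted p = 0.801), and at this depth a change inside that interval was not detectable. ZO-1 remained far above ZO-3 per length in MCF10Ca1a, at 39.8 ± 2.34 against 0.986 ± 0.202 TPM (SD, n = 3).

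Whether a gene changed differently at the first step (MCF10A to MCF10AT1) and the second (MCF10AT1 to MCF10Ca1a) was tested directly, as the signed second log2 change minus the signed first. For a gene that fell and then rose, such as OCLN and F11R, this adds the sizes of both changes and does not say which was larger. This difference passed for 7 of the 8 tested genes, beside 68.7% of all genes. It was -3.92 for CLDN4 (SE 0.134, adjusted p = 2.03e-11), which rose at both steps and more at the first. On the TPM scale this difference was -2.99 with limma on log2(TPM + 1) (adjusted p = 5.09e-07). It was above 0 for CLDN1 at 0.88 (adjusted p = 1.64e-05), OCLN at 1.74 (adjusted p = 8.2e-08), F11R at 2.42 (adjusted p = 2.87e-09), TJP1 at 0.37 (adjusted p = 0.00685) and TJP3 at 2.21 (adjusted p = 0.000181; 0.70 with limma on log2(TPM + 1), adjusted p = 0.00237). MARVELD2 did not pass, at -0.07 (95% interval -0.33 to 0.20, adjusted p = 0.656). CLDN7 passed on counts at -0.26 (adjusted p = 0.0223) and turned to 0.40 with limma on log2(TPM + 1) (adjusted p = 0.00426), so its sign depended on the scale. Its call on counts was also lost without MCF10AT1 replicate 1 (adjusted p = 0.104) or replicate 2 (adjusted p = 0.0924). Called genes that were higher in this contrast made up 45.7% on counts and 66.7% with limma on log2(TPM + 1).

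Transcript make-up was compared next, with limma, on the log2 ratio between a transcript's estimated counts and those of the rest of its gene. Of the 7 genes with transcripts that could be tested, 3 had a changed transcript in MCF10AT1 against MCF10A (CLDN4, CLDN7 and MARVELD2), 4 in MCF10Ca1a against MCF10A (these and TJP1) and 3 in MCF10Ca1a against MCF10AT1 (CLDN4, CLDN7 and, by a minor transcript, MARVELD2). Over all 74510 transcripts tested, 2.27%, 18.9% and 14.5% were called in these comparisons in that order. Counted the same way, by transcript, 7, 12 and 7 of the 35 tested transcripts of these genes were called; transcripts of 1 gene share its counts, so they are not independent. The uncertainty of assigning reads between overlapping transcripts was not used here.

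CLDN7 has transcripts from 2 start sites that lie 735 bases apart and carry the same coding sequence of 633 bases. CLDN7-201 starts at 7262478 and CLDN7-202 further upstream at 7263213. CLDN7-202 took 24.4%, 27.4% and 27% of the gene's counts in MCF10A, 4.76%, 6.57% and 7.65% in MCF10AT1, with 3.34%, 3.34% and 3.86% in MCF10Ca1a. MCF10A stood apart from both other lines. The log2 ratio fell by 2.43 in MCF10AT1 against MCF10A (SE 0.204, adjusted p = 0.00141) and by 3.29 in MCF10Ca1a against MCF10A (SE 0.204, adjusted p = 5.64e-05). CLDN7-201 went the other way, from 56.9% ± 1.92 to 84.4% ± 2.99 and 89.9% ± 1.28 (SD, n = 3).

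In absolute level CLDN7-201 averaged 24.9 ± 0.785, 73.3 ± 7.12 and 129 ± 3.43 CPM in MCF10A, MCF10AT1 and MCF10Ca1a, while CLDN7-202 averaged 11.5 ± 0.767, 5.44 ± 1 and 5.05 ± 0.415 CPM (SD, n = 3). The rise of the gene thus lay mainly in counts assigned to the downstream start. CLDN7-207, a short transcript with 3 exons that starts at 7261145, took 11.3% ± 0.788, 2.94% ± 0.553 and 1.15% ± 0.293. The smaller changes of CLDN7-202 (log2 ratio -0.87, adjusted p = 0.0306) and CLDN7-201 (0.70, adjusted p = 0.0445) between MCF10Ca1a and MCF10AT1 were lost in 6 and 7 of the 9 fits that left out 1 library. For CLDN7-202 these were the fits without MCF10A replicate 2 or 3, MCF10AT1 replicate 2 or 3, or MCF10Ca1a replicate 1 or 2 (adjusted p from 0.0514 to 0.0921), and for CLDN7-201 the same and the fit without MCF10A replicate 1 (0.0613 to 0.110).

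The 250 bases upstream of the CLDN7-201 start hold 4 matches to the E-box CAGGTG on either strand (CACCTG on the other), the motif known to be bound by the SNAI and ZEB repressors. Of 35116 upstream windows of that length in RefSeq (GRCh38.p14), 17.5% hold at least 1 match and 0.122% hold 4 or more. The window before the CLDN7-202 start holds 0, and no window read for the other genes holds more than 1. No window of F11R was among those read. A second motif, the site AACNGGT of grainyhead-like (GRHL) factors with N for any base, was read in the same windows. It had 1 match in the CLDN4 window and 1 among the TJP1 windows, where 5.37% of all windows hold at least 1. A match describes letters and shows no binding. The stretches are shown because the 2 starts differed in them and in their counts, on the minus strand from 5′ to 3′ with the E-box in capitals. They lie at chr17:7262631-7262660, chr17:7262592-7262621 and chr17:7262479-7262508, and the last ends next to the start site and has 2 matches.
CLDN7 far stretch: ttcctcctCACCTGggcaaggaggggtggg
CLDN7 middle stretch: ttccggttCAGGTGagtgtcccttcggtga
CLDN7 near stretch: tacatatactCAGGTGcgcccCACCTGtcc

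CLDN4 also has 2 main transcripts with the same coding sequence, of 627 bases. CLDN4-202 starts at 73828174, 2689 bases upstream of CLDN4-201 at 73830863. CLDN4-202 took 34.5%, 31.6% and 53.5% of the gene's counts in MCF10A, 0.718%, 0.491% and 0.871% in MCF10AT1, with 2.72%, 2.86% and 2.63% in MCF10Ca1a. Its log2 ratio fell by 6.57 in MCF10AT1 (SE 0.371, adjusted p = 0.000163) and by 4.54 in MCF10Ca1a (SE 0.371, adjusted p = 0.000211) against MCF10A, and it was 2.03 higher in MCF10Ca1a than in MCF10AT1 (SE 0.371, adjusted p = 0.0113). The MCF10A shares rest on few counts. In level, CLDN4-201 went from 1.08 ± 0.354 to 68.6 ± 4.16 and 174 ± 8.19 CPM, and CLDN4-202 from 0.686 ± 0.106 to 0.477 ± 0.123 and 4.9 ± 0.0835 CPM (SD, n = 3).

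MARVELD2 shifted between transcripts with and without an internal exon of 36 bases, exon 3 of MARVELD2-201 at chr5:69424601-69424636 on the plus strand. The exon holds a whole number of codons (12), so both forms keep the reading frame. MARVELD2-204, which lacks it, took 13.9%, 14.5% and 7.62% in MCF10A, 30%, 25.8% and 27.7% in MCF10AT1, with 41.1%, 34.2% and 39.1% in MCF10Ca1a. The lines did not overlap. Its log2 ratio was 2.23 higher in MCF10Ca1a than in MCF10A (SE 0.284, adjusted p = 0.00173). The change of 1.55 in MCF10AT1 against MCF10A (SE 0.284, adjusted p = 0.0404) was lost in 8 of the 9 fits that left out 1 library, all but the fit without MCF10A replicate 3 (adjusted p from 0.054 to 0.127), and 0.68 between MCF10Ca1a and MCF10AT1 did not pass (adjusted p = 0.166). Transcripts with the exon together took 87.6% ± 3.86 of the gene's counts in MCF10A, 71.7% ± 2 in MCF10AT1 and 61.5% ± 3.36 in MCF10Ca1a. MARVELD2-204 itself averaged 3.07 ± 1.12, 6.01 ± 0.246 and 6.75 ± 0.779 CPM, and MARVELD2-201 averaged 19 ± 0.974, 12.5 ± 0.815 and 9.1 ± 0.713 CPM (SD, n = 3). The exon is printed in capitals because it is what the forms differ by, with 10 bases of the neighbouring exons of MARVELD2-201 on each side in lower case, as the transcript joins them.
MARVELD2 exon: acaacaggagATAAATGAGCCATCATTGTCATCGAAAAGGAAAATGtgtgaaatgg

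TJP1 is known to be made with or without an alternative exon of 240 bases, which encodes the alpha region of 80 residues. The exon lies at chr15:29719777-29720016 on the minus strand. The transcripts known to hold it, TJP1-201 and TJP1-202, together took 9.05%, 11.4% and 12.6% in MCF10A, 5.64%, 4.42% and 9.07% in MCF10AT1, with 4.59%, 3.14% and 6.03% in MCF10Ca1a. The shares in MCF10Ca1a lay below those in MCF10A. Between 2.92% and 18.6% of the gene's counts went to transcripts that could not be assigned to either form, which exceeded the exon-holding share in 7 of the 9 libraries. TJP1-201, which was picked after its values were seen, fell by 1.27 in log2 ratio in MCF10Ca1a against MCF10A (SE 0.362, adjusted p = 0.0483), a call that was lost in 6 of the 9 fits that left out 1 library, those without any 1 MCF10A library, MCF10AT1 replicate 1, or MCF10Ca1a replicate 1 or 2 (adjusted p from 0.0618 to 0.134). The exon is printed in capitals with 10 bases of the neighbouring exons of TJP1-201 on each side.
TJP1 exon: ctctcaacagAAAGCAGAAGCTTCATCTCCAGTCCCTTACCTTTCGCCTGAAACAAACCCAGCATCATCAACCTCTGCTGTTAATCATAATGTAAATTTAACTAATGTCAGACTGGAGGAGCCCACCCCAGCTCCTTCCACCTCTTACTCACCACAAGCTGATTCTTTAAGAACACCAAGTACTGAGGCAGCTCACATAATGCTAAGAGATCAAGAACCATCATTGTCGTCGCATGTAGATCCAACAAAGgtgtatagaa

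The other genes showed no called change of a main transcript. CLDN1 had a single main transcript with at least 99.8% of its counts in each library. F11R-202 took 91.7% to 94.2% in every library. OCLN and TJP3 gave shares that varied widely between libraries of 1 line. OCLN-202, for example, took 0%, 0% and 44.2% in MCF10Ca1a, and TJP3-202 took 93%, 100% and 0% in MCF10A. These were not read as differences between lines.

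**Figure D4:**
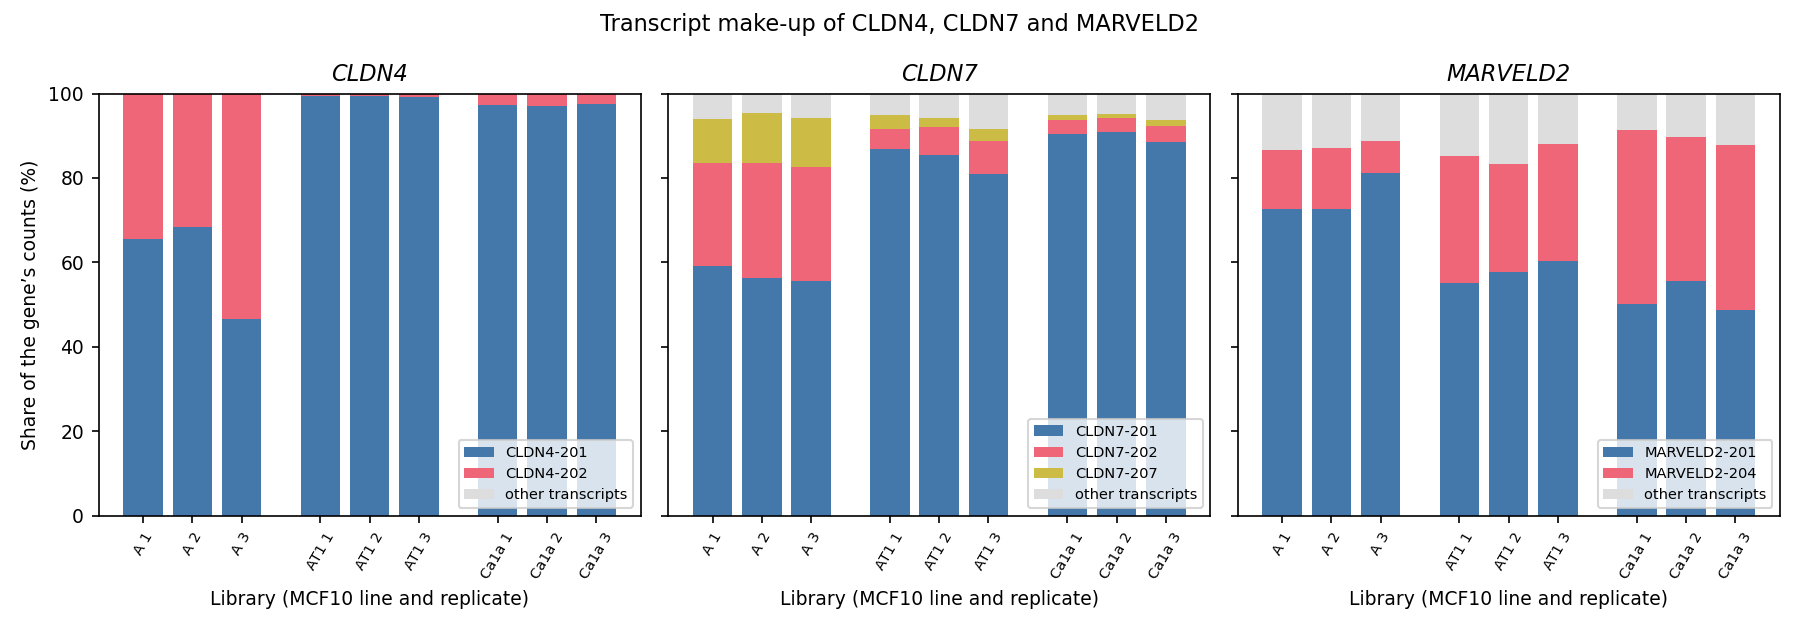
Share of each gene's estimated counts (vertical axis, in percent) by transcript in each library (horizontal axis) for CLDN4, CLDN7 and MARVELD2. CLDN4-202 and CLDN7-202 are large parts only in the MCF10A bars among those shown, at 31.6% to 53.5% and 24.4% to 27.4%, and MARVELD2-204 grows from 7.62% to 14.5% in MCF10A to 34.2% to 41.1% in MCF10Ca1a.

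The other genes of the junction were read from lists in the same fit. Their counts stand beside 29.8% of all genes higher and 31.8% lower in MCF10AT1 against MCF10A, and 39% higher and 41.9% lower in MCF10Ca1a against MCF10A. Of 20 other claudins, 6 were tested. In MCF10AT1 against MCF10A 3 were higher, 1 was lower and 2 did not pass, and in MCF10Ca1a against MCF10A 5 were higher and 1 was lower. CLDN12, a widely expressed claudin, was the only abundant one, at 51.6 ± 2.07, 51.7 ± 3.12 and 57.8 ± 2.45 CPM (SD, n = 3). Its change in MCF10Ca1a against MCF10A was 0.16 (SE 0.0579, adjusted p = 0.0193). CLDN15 averaged 1.64, 1.61 and 4.75 CPM and was 1.53 higher on the log2 scale in MCF10Ca1a than in MCF10A (SE 0.134, adjusted p = 1.13e-07). The rest were scarce, with fewer than 100 counts on average in every line.

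Of 14 other membrane proteins of the junction, 11 were tested. In MCF10AT1 against MCF10A 4 were higher, 5 were lower and 2 did not pass, and in MCF10Ca1a against MCF10A 7 were higher and 4 lower. EPCAM, an adhesion protein known to bind CLDN7, averaged 30.3 ± 0.825, 141 ± 8.97 and 267 ± 1.73 CPM in MCF10A, MCF10AT1 and MCF10Ca1a (SD, n = 3). It rose by 3.14 on the log2 scale from MCF10A to MCF10Ca1a (SE 0.0597, adjusted p = 2.01e-14). MARVELD3, the third MARVEL protein of the junction, rose by 1.51 (SE 0.0829, adjusted p = 6.58e-10). MARVELD3 thus rose while its relative MARVELD2 fell.

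Among those that fell, CXADR, the coxsackievirus and adenovirus receptor, fell by 0.83 (SE 0.063, adjusted p = 2.22e-08). TMEM47 averaged 159.7 counts in MCF10A and 0 in every library of MCF10AT1 and MCF10Ca1a, at least 52.4-fold and 28.2-fold lower against a floor of 3 counts per library. JAM3, a relative of F11R, averaged 131.3 counts in MCF10A, had 0 to 2 counts in MCF10AT1 libraries and 0 in MCF10Ca1a, at least 23.2-fold lower in the last.

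Of 37 scaffold and plaque proteins, 35 were tested. Between MCF10AT1 and MCF10A 10 were higher, 13 lower and 12 did not pass, and between MCF10Ca1a and MCF10A 20 were higher, 12 lower and 3 did not pass. The PAR6 polarity proteins split. PARD6A rose by 3.38 (SE 0.194, adjusted p = 1.04e-09) and PARD6B by 2.49 (SE 0.1, adjusted p = 2.41e-11) in MCF10Ca1a against MCF10A, while PARD6G fell by 3.90 (SE 0.137, adjusted p = 6.5e-12). CGN (cingulin), which binds ZO proteins and myosin, rose by 1.88 (SE 0.143, adjusted p = 2.17e-08). SHROOM2 fell by 4.71 (SE 0.264, adjusted p = 8.15e-10) and PARD3B by 2.93 (SE 0.188, adjusted p = 3.49e-09). The median log2 change of the list in MCF10Ca1a against MCF10A was 0.38, beside 1.39 for the other membrane proteins and 2.48 for the other claudins, most of which were scarce.

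Of 23 transcription and splicing regulators of junction genes, 20 were tested. In MCF10Ca1a against MCF10A 11 were higher, 8 were lower and 1 did not pass, and in MCF10AT1 against MCF10A 10 were higher, 7 lower and 3 did not pass. GRHL2, a grainyhead-like factor known to activate CLDN4 and other epithelial junction genes, held 0 counts in every MCF10A library. It averaged 27.2 ± 0.279 CPM in MCF10AT1 and 14.9 ± 0.252 CPM in MCF10Ca1a (SD, n = 3), at least 601-fold and 328-fold higher against a floor of 3 counts per library. Its relative GRHL3 went the other way and fell by 3.97 in MCF10AT1 (SE 0.185, adjusted p = 5.07e-10) and fell by 3.25 in MCF10Ca1a (SE 0.191, adjusted p = 1.37e-09). GRHL1, a further relative, rose by 0.48 in MCF10AT1 (SE 0.0866, adjusted p = 0.000293) and by 3.31 in MCF10Ca1a (SE 0.0805, adjusted p = 1.86e-13). It averaged 2.47, 3.45 and 24.6 CPM in MCF10A, MCF10AT1 and MCF10Ca1a, above GRHL2 in the last.

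The epithelial factors ELF3 and OVOL1 rose in MCF10Ca1a against MCF10A by 5.05 (SE 0.0872, adjusted p = 8.11e-15) and 5.15 (SE 0.238, adjusted p = 1.03e-10). ELF3 averaged 1.06, 9.66 and 35 CPM over the 3 lines. OVOL1 stayed low, at 0.0903, 0.384 and 3.29 CPM. ZEB1, a repressor that binds E-boxes, fell by 2.83 (SE 0.152, adjusted p = 5.2e-10) and TWIST2 by 6.37 (SE 0.128, adjusted p = 3.2e-14). ZEB1 averaged 8.4, 5.35 and 1.18 CPM and TWIST2 17.6, 13.8 and 0.21 CPM. Other repressors of the list, singled out after their values were seen, differed in direction. SNAI2, the most abundant SNAI gene, averaged 101, 98.5 and 48.4 CPM and fell by 1.06 in MCF10Ca1a against MCF10A (SE 0.0475, adjusted p = 7.6e-11). TWIST1 fell by 1.96 (SE 0.0886, adjusted p = 8.22e-11) and ZEB2 fell by 1.53 (SE 0.134, adjusted p = 1.09e-07) in that comparison, though both were higher in MCF10AT1 than in MCF10A. SNAI1 averaged 0.669, 1.58 and 9 CPM, with an adjusted p of 2.97e-11 for the rise from MCF10A to MCF10Ca1a.

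Matriptase and prostasin are membrane proteases known to act on tight junction assembly and on EPCAM, and 5 of the 7 genes listed for them and their inhibitors were tested. In MCF10Ca1a against MCF10A all 5 were higher, where 39% of all genes were, and in MCF10AT1 4 were higher and 1 did not pass, where 29.8% of all genes were higher. PRSS8 (prostasin) rose by 3.53 (SE 0.0765, adjusted p = 6.08e-14), from 17.2 to 199 CPM. ST14 (matriptase) rose by 0.59 (SE 0.0764, adjusted p = 6.75e-06) and was the 1 that did not pass in MCF10AT1 (-0.16, adjusted p = 0.0763). TMPRSS4, also among the 5, was scarce, at 0.0715, 0.954 and 0.391 CPM in MCF10A, MCF10AT1 and MCF10Ca1a. The inhibitors SPINT1 and SPINT2 rose by 1.68 (SE 0.0807, adjusted p = 1.56e-10) and 1.54 (SE 0.0666, adjusted p = 5e-11).

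**Figure D5:**
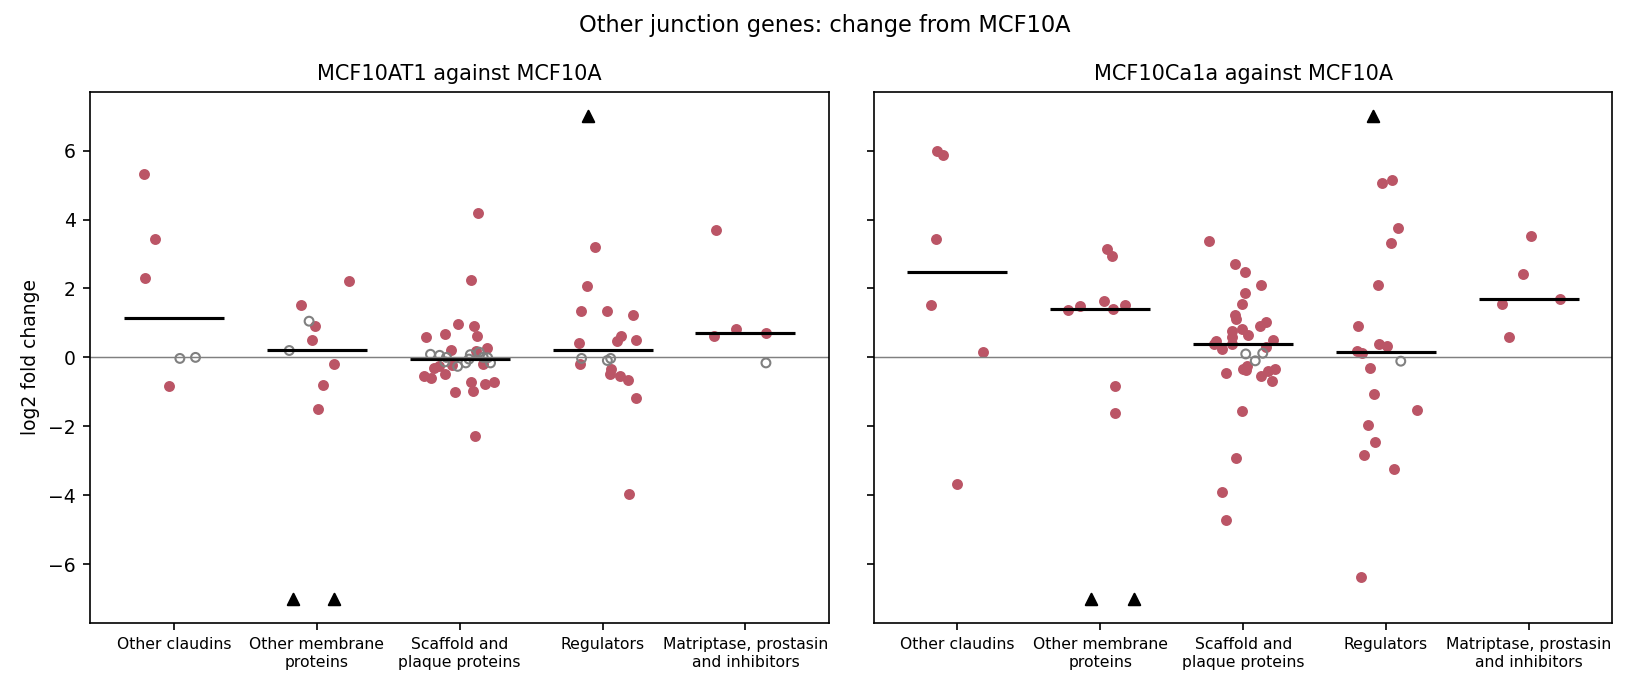
Fitted log2 change from MCF10A (vertical axis) of the tested genes of 5 lists of other junction genes (horizontal axis), in MCF10AT1 on the left and MCF10Ca1a on the right. Filled points passed the test, open points did not, black lines are list medians, and triangles at the edge are GRHL2, TMEM47 and JAM3, whose fitted values lie beyond the axis and depend on libraries at or near 0; the proteases and inhibitors lie above 0 in MCF10Ca1a.

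For each tested gene the gene with the most similar course was sought among 12614 genes, by Pearson r of log2 CPM over the 9 libraries. With 3 lines many genes share a course, so r is given only as a description, and the libraries of a line are not independent points on it. CLDN4 was most like LYPD3 (r = 0.9996), at 12.1, 55.7 and 85.2 CPM in MCF10A, MCF10AT1 and MCF10Ca1a. F11R was most like NCSTN (r = 0.9995), which lies on the same chromosome at a gap of 636 kb and averaged 139, 73.6 and 248 CPM. CLDN1 was paired with ZNF543 (r = 0.9993), CLDN7 with SERPINA3 (r = 0.9992), OCLN with TPCN1 (r = 0.9974), TJP3 with ZSCAN21 (r = 0.9962) and TJP1 with GLE1 (r = 0.9953). MARVELD2 had the lowest best match, DERPC (r = 0.9815), at 53.9, 42 and 29.4 CPM.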

How the data were processed

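Poly(A) RNA was sequenced with a stranded Illumina kit, per the labels' protocols. Salmon and hg38 are named in the submitters' processing notes, and no version is given in the sources used here. The 6 deposited tables hold estimated counts per gene, 2 rescaled forms of these, estimated counts per transcript, and TPM values per gene and per transcript. Deposited estimated counts were rounded. Genes were filtered with filterByExpr by line (minimum count 10, minimum total 15) and tested with edgeR 4.0.16 (glmQLFit, glmQLFTest, TMM, R 4.3.3) with all 9 libraries in 1 fit and Benjamini-Hochberg adjustment at 0.05. CPM uses TMM-scaled totals. SE in edgeR is the absolute log2 fold change over the root of its F statistic, and intervals are 95%. Transcript usage was tested with limma 3.58.1 on log2((transcript + 0.5)/(rest of gene + 0.5)), for transcripts averaging 10 counts in 1 line, of genes averaging 20 in every line. Both tests were tested on simulated data.

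Positions and transcript models came from GENCODE 29 (GRCh38), which matched 58227 of the 62666 gene identifiers; 4 of the transcripts shown by the rule below are not in it. RefSeq windows came from GRCh38.p14. Pairs of libraries of 1 line differed by more than sampling noise (chi-square per degree of freedom 2.39 to 72.4), and none were counted as 1. Alternatives were DESeq2 1.42.0 (size factors, Wald test), no filter, the rescaled counts, limma on log2 TPM, a replicate block, fewer lines and each library left out.

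Named were the 9 genes, transcripts with at least 10% of their gene in a line, of each list up to 3 called genes that rose and 3 that fell most in MCF10Ca1a against MCF10A with a mean of 100 counts in the higher line, claudins with that mean, and the most similar gene. A further gene that meets these criteria is not reported here. CLDN16, TJP1-201, GRHL1, ST14, TMPRSS4 and the repressors SNAI1, SNAI2, TWIST1 and ZEB2 fall outside them. The genes and lists were chosen with earlier results of these data known.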

Additional observations from a re-analysis of the deposited data

How the results depend on the processing

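The counts of tight junction genes called stayed within 1.5 times their values under every alternative run: 5 to 6, 7 to 8 and 7 to 8 for MCF10AT1 over MCF10A, MCF10Ca1a over MCF10A and MCF10Ca1a over MCF10AT1, 6 to 7 for the difference of the steps, and 2 to 4, 3 to 5 and 2 to 4 genes with changed transcripts. Signs turned for 4 small values, and the cause was not tested. The CLDN7 difference of steps was 0.40 in all 3 limma fits on TPM, and was also lost with DESeq2 size factors (adjusted p = 0.0641), the DESeq2 Wald test (0.0527), length-scaled counts (0.842) and scaled counts (0.920). That of MARVELD2 was 0.26 with log2(TPM + 1), 0.28 with log2(TPM + 0.1) and 0.26 without a filter. TJP1 in MCF10AT1 against MCF10A was -0.04 on length-scaled and on scaled counts, -0.16 in the 3 TPM fits and -0.04 without MCF10A replicate 3, where leaving out other single libraries gave up to 0.09. TJP3 there was -0.03 and -0.04 on the rescaled counts, -0.02, -0.04 and -0.02 on TPM, and -0.04 to -0.01 without MCF10A replicate 2, MCF10AT1 replicate 2 or MCF10AT1 replicate 3, and up to 0.26 without another library. MARVELD2 in MCF10AT1 against MCF10A was also lost on length-scaled counts (0.0522), scaled counts (0.0743) and unfiltered TPM (0.0655). With log2(TPM + 0.1) the median of all genes moved to -0.11, 0.10 and 0.21 in the 3 comparisons. The share of called genes that were higher ran from 36.1% to 37% on TPM in MCF10AT1 against MCF10A and from 61.2% to 62.8% in MCF10Ca1a against MCF10AT1.

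Replicate numbers did not pair the libraries: correlations of deviations ran from -0.136 to 0.159 between same-numbered libraries. With the replicate block 6, 8, 8 and 7 genes were called, and 2, 4 and 2 had changed transcripts, where MARVELD2-204 was lost in MCF10AT1 against MCF10A (adjusted p = 0.107). Over all transcripts the block left 604 calls in that comparison in place of 1691. Without MCF10AT1 replicate 1 or 3, transcript calls in MCF10Ca1a against MCF10AT1 fell to 7154 and 7086 from 10773. Without MCF10A replicate 3 the change of MARVELD2-204 in that comparison passed (adjusted p = 0.0343). Depth limits TJP3, and CLDN4 transcripts in MCF10A.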
